A study of Mus musculus with 15 samples.

Results

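The comparison set 3 RNA libraries of mouse B cell lymphoma with a vector for a short hairpin RNA directed at Kmt2d (sh-Kmt2d) beside 4 libraries of lymphoma that carried an empty vector (EV). The 3 sh-Kmt2d libraries were taken by their titles, which all hold the number 103, and they are 3 of the 5 sh-Kmt2d libraries. The 2 sh-Kmt2d libraries of title number 110 were left out, since earlier results of these data had shown the strongest loss of long transcripts in them, so that 7 of the 9 RNA libraries entered the comparison. The question was which genes of the tumour cells differ in level when they carry the hairpin.

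The vector is the only difference between the groups that the labels state. All 7 libraries came from tumour cells taken from mice without culture, enriched on magnetic beads for CD45R (B220), a surface marker of B cells that some dendritic cells also carry. Strain, genotype, age, the tissue of the tumour, the hairpin's sequence and the cells that received the vector were not given in the sources used here. The design text of the series gives 3 samples per group. All sh-Kmt2d libraries of the comparison share the title number 103, the EV libraries have the numbers 78 (1 library) and 87 (3 libraries), and none spans both groups, so that the vector and the title number cannot be told apart. No label states that the libraries are from separate animals, and p-values then measure only the spread between these samples.

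KMT2D is a histone methyltransferase that places mono- and dimethyl marks on lysine 4 of histone H3, mainly at enhancers, in a complex with KDM6A, NCOA6, PAXIP1 and PAGR1. Its gene is among the most often mutated in human follicular and diffuse large B cell lymphoma, and the mutations usually cut the protein short. Genes described as depending on it in germinal centre B cells include brakes on B cell receptor, CD40 and cytokine signalling.

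Gene counts per library ran from 13024141 to 25539223 in EV and from 14320718 to 29284830 in sh-Kmt2d 103. Xist, the RNA of the inactive X chromosome, and the Y-linked Ddx3y put EV replicate 4 (5648 and 6 counts) and sh-Kmt2d 103 replicate 3 (6481 and 4 counts) among female samples and the other 5 libraries among male ones. EV replicate 2 held both Xist (1170 counts) and Ddx3y (2210 counts), that is RNA of both kinds. The 5 sex-linked genes listed had a median log2 fold change of -0.48, with none past an unadjusted p of 0.05. The first principal component of log2 CPM (counts scaled to a common library size), with 48.6% of the variance, placed EV replicates 1 to 3 between -49.76 and -32.97 and sh-Kmt2d 103 replicates 1 and 2 at 48.55 and 46.31. EV replicate 4 lay at 20.64 and sh-Kmt2d 103 replicate 3 at 16.8, so that EV replicate 4 stood on the side of the sh-Kmt2d libraries and apart from the other EV libraries.

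Kmt2d itself (ENSMUSG00000048154) was lower on average in the libraries labelled sh-Kmt2d, but the groups overlapped. It stood at 539.8, 274, 533 and 103.5 CPM in EV replicates 1 to 4 and at 63.1, 51.4 and 223 CPM in sh-Kmt2d 103 replicates 1 to 3. The means were 363 ± 212 CPM (SD, n = 4) and 112.5 ± 95.8 CPM (SD, n = 3). EV replicate 4 lay below sh-Kmt2d 103 replicate 3, and these are the 2 libraries with high Xist and almost no Y-linked RNA. In log2 units the difference was -1.69 ± 0.695 (SE), which missed the threshold (adjusted p = 0.184 by edgeR's quasi-likelihood test, 0.071 by DESeq2). Without EV replicate 4 it was -1.98 (edgeR adjusted p = 0.0565), and without both of these libraries it was -2.97 (edgeR adjusted p = 0.00451). These libraries held the lowest EV value and the highest sh-Kmt2d 103 value, so that leaving them out widens the difference by itself.

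Libraries with less Kmt2d also had less of other very long transcripts. Each of 25 genes with long transcripts had a negative log2 fold change, from -1.93 to -0.19 with a median of -1.05, and Ahnak, a giant scaffold protein, stood at -1.93 ± 0.57 (SE). Of 25 short-transcript genes, most of them for respiratory chain subunits, 24 had a positive value, and the median was 0.59. The difference of their median log2 CPM, the long-minus-short index, was 2.646, 2.081, 2.895 and 0.877 from EV replicate 1 to 4 and -0.12, -0.382 and 1.459 from sh-Kmt2d 103 replicate 1 to 3. The EV mean was 2.12 ± 0.899 (SD, n = 4), the sh-Kmt2d 103 mean was 0.319 ± 0.996 (SD, n = 3), and a two-sided exact permutation test over 35 orders gave p = 0.114, with 0.0571 the smallest p it allows and an adjusted p of 0.152 over 4 library measures. With the index as a covariate the log2 fold change of Kmt2d was 0.42, so that these data do not separate its difference from that of the libraries as a whole.

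**Figure D1:**
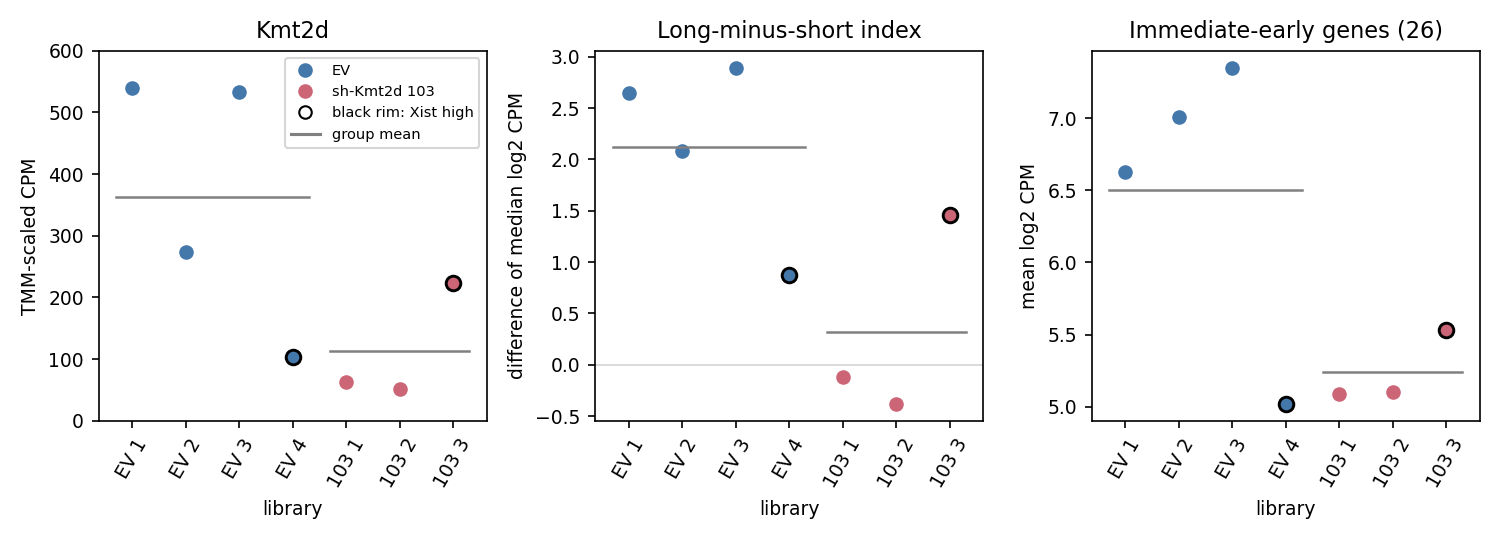
Kmt2d in TMM-scaled CPM (left), the long-minus-short index as a difference of median log2 CPM (middle) and the mean log2 CPM of 26 immediate-early genes (right), 1 point per library, with EV in blue, sh-Kmt2d 103 in red, group means as grey lines and a black rim on the 2 libraries with high Xist and almost no Y-linked RNA. EV replicate 4 lies with the sh-Kmt2d libraries in all 3 panels, and sh-Kmt2d 103 replicate 3 lies highest of its group.

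No gene passed the adjusted threshold of 0.05 in either direction. The edgeR quasi-likelihood test called 0 of 14026 tested genes higher (0.0%) and 0 lower (0.0%) in sh-Kmt2d 103. An unadjusted p under 0.05 was reached by 1599 genes on the higher side (11.4%) and 2000 on the lower side (14.3%). These shares are the background for the counts of members below that come from this main test. The libraries of the 2 groups did not overlap for 1047 genes with higher values under the hairpin (7.46%) and 948 with lower values (6.76%). At an adjusted p under 0.1 there were 4 genes higher and 1 lower, and the smallest adjusted p was 0.0867, that of Kirrel. DESeq2 called 225 genes higher (1.6%) and 440 lower (3.14%).

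The count of calls turned on the library EV replicate 4. Without it edgeR called 1645 of 13615 genes higher (12.1%) and 1579 lower (11.6%). Without both libraries with high Xist and almost no Y-linked RNA, an alternative chosen after the data were seen, it called 2683 of 14261 genes higher (18.8%) and 2972 lower (20.8%). Without any 1 of the other 6 libraries edgeR called 0 genes in either direction. Of the 135 genes named by the rule of the methods, 68 passed with DESeq2, 96 without EV replicate 4 and 108 without both libraries, and in the main test none did. The rule picks most of them by small p in these same libraries, so that these counts follow in large part from the choice. Values below are therefore given as values, and a call is named only with the test that made it.

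**Figure D2:**
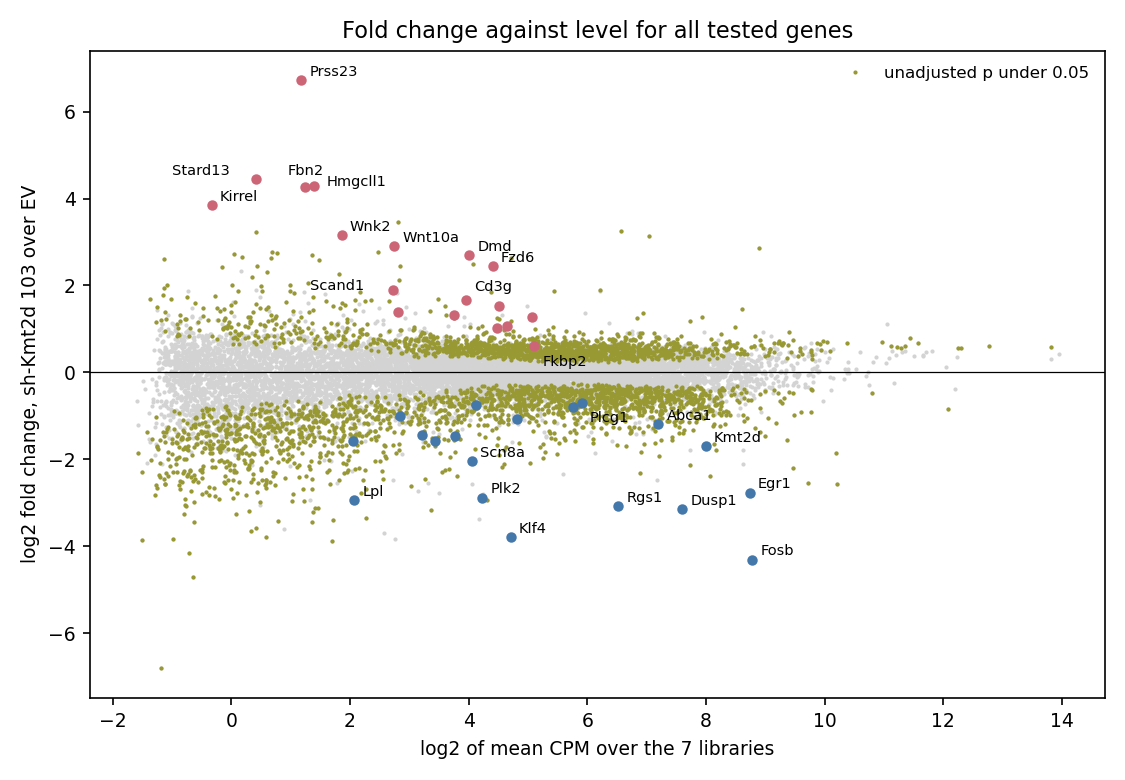
Log2 fold change (vertical axis, positive where sh-Kmt2d 103 is higher than EV) against the log2 of the mean CPM over the 7 libraries (horizontal axis) for the 14026 tested genes, with the genes at an unadjusted p under 0.05 in olive and the named genes of smallest p or largest fold in red (higher) and blue (lower). Fosb, Dusp1, Egr1 and Rgs1 combine high levels with large negative values, while the named genes with large positive values are of low level.

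The genes with the smallest p on the higher side were of low level, and several were close to absent in EV. Hmgcll1, an enzyme of ketone body and leucine metabolism, stood at 0.228, 0.493, 0.325 and 0.1555 CPM in EV and at 8.87, 3.46 and 4.84 CPM in sh-Kmt2d 103, which is a log2 fold change of 4.28 ± 0.48 (SE, edgeR adjusted p = 0.0935). All sh-Kmt2d 103 libraries lay far above all EV libraries, and EV replicate 4, which sided with the sh-Kmt2d libraries for Kmt2d, had the lowest value of all. Kirrel, an adhesion protein of the immunoglobulin superfamily, stood at 0.0761, 0.141, 0.108 and 0.117 CPM in EV and at 2.21, 1.47 and 1.38 CPM in sh-Kmt2d 103. Stard13, which encodes a GTPase-activating protein, stood at 0.228, 0.141, 0.0542 and 0.117 and at 4.70, 1.835 and 2.14 CPM. Both had at most 3 counts in every EV library and at least 20 in every sh-Kmt2d 103 library. Fbn2, a fibrillin of the extracellular matrix, stood at 0.6085, 0.2815, 0.217 and 0.0389 CPM in EV and at 3.65, 3.20 and 8.44 CPM in sh-Kmt2d 103. Prss23, a secreted serine protease, had 0 or 1 count in each EV library and stood at 2.35, 0.944 and 12.2 CPM in sh-Kmt2d 103, where replicate 3 was the highest. Kirrel and Stard13 were chosen for few counts in one group and many in the other, and Hmgcll1, Fbn2 and Prss23 reached the level of the rule through sh-Kmt2d 103 alone, so that the separation of the groups follows in part from the choice. Their values in EV rest on few counts. Wnt10a, Wnk2, Scand1, Dmd and Gh below also reached 5 CPM through sh-Kmt2d 103 alone, and Lpl, Trabd2b, Rasgrp4 and Galnt17 through EV alone. Fzd6, Cd3g, Pfn2 and Cdkn1a reached the 20 CPM of the rule through sh-Kmt2d 103 alone, and Klf4, Rgs1 and Plk2 through EV alone. For these genes too the difference between the groups follows in part from the choice.

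Of the 15 tested genes of the WNT and Notch list, 3 were higher and 3 lower at unadjusted p values under 0.05, with a median of 0.25. Wnt10a, a secreted WNT ligand, stood at 1.52, 1.55, 1.08 and 2.84 CPM in EV and at 17.95, 13.3 and 8.51 CPM in sh-Kmt2d 103, which is a log2 fold change of 2.899 ± 0.38 (SE, edgeR adjusted p = 0.11). The lowest sh-Kmt2d 103 library lay well above the highest EV library. Fzd6, a WNT receptor, stood at 16.35, 2.745, 1.25 and 8.82 CPM and at 32.05, 19.4 and 67.6 CPM (2.45 ± 0.78, SE), with EV replicate 1 close to the lowest sh-Kmt2d library. Fzd1, another receptor of the family, was far lower, at 0.141 to 0.685 CPM in EV and 1.26 to 2.075 CPM in sh-Kmt2d 103. Wnt10a, Fzd6 and Fzd1 were the members on the higher side. On the lower side were Lrp5 (-1.15), Notch1 (-0.85) and Notch2 (-1.025), also receptors or coreceptors. Among the other genes of smallest p or largest fold, Dmd, which encodes dystrophin and is among the longest of all genes, stood at 6.16, 3.80, 2.66 and 6.53 CPM in EV and at 21.7, 16.7 and 55.05 CPM in sh-Kmt2d 103, which is a log2 fold change of 2.69 ± 0.47 (SE) that is opposite in sign to the long transcripts as a group. Pfn2, a profilin that binds actin (1.52 ± 0.304, SE), and Wnk2, a kinase (3.16 ± 0.54, SE), did not overlap between the groups either. Ret, a receptor tyrosine kinase (1.27 ± 0.45, SE), overlapped, because sh-Kmt2d 103 replicate 2 lay below EV replicate 1.

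Other genes on the higher side had modest but even differences, and a choice by small p favours such evenness. Eif4ebp1, which encodes a repressor of cap-dependent translation under the control of mTOR, stood at 15.9, 14.8, 12.5 and 18.4 CPM in EV and at 32, 32.25 and 29.5 CPM in sh-Kmt2d 103. Its log2 fold change was 1.02 ± 0.16 (SE, edgeR adjusted p = 0.176), and the values within each group were close to each other. Cdkn1a, the cell cycle inhibitor p21, stood at 8.595, 4.575, 8.40 and 11.1 CPM and at 21.4, 13.4 and 26.6 CPM (1.31 ± 0.325, SE). Fkbp2, a prolyl isomerase of the endoplasmic reticulum, had 0.62 ± 0.11 (SE), Scand1 1.89 ± 0.31 and Ppp1r35 1.06 ± 0.185, and the groups did not overlap for any of the 3. Cd3g, a chain of the T cell receptor complex, stood at 6.998, 9.71, 4.55 and 10.5 CPM in EV and at 29.6, 23.9 and 22.9 CPM in sh-Kmt2d 103 (1.68 ± 0.28, SE). The neighbouring CD3 genes did not share that pattern, with Cd3e at 0.44 ± 0.34 and Cd3d at 0.67 ± 0.35 and overlapping groups. Gh (1.396 ± 0.27, SE) lies next to Cd79b in the RefSeq annotation of GRCm38.p6, and Cd79b, far more abundant, was also higher in each of these libraries (0.79 ± 0.202, SE). The part of Cd79b reads in the count of Gh was not tested. Scand1 overlaps Cnbd2 in that annotation, and among the genes of the lower side below Cfap74 overlaps Gabrd, Plcg1 overlaps Zhx3 and Rasgrp4 overlaps Fam98c. Whether the counting used strand is not given in the sources used here, so that reads of such pairs cannot be told apart.

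On the lower side, the smallest p belonged to genes of even difference across libraries. A choice by small p favours such evenness and groups that do not overlap. Cfap74, a protein of the axoneme of cilia, stood at 17.95, 14.5, 14.1 and 14.1 CPM in EV and at 4.10, 5.77 and 5.33 CPM in sh-Kmt2d 103, which is a log2 fold change of -1.58 ± 0.195 (SE, edgeR adjusted p = 0.0935, the only gene lower at an adjusted p under 0.1). In EV replicate 4 it stood at the level of the other EV libraries. Trabd2b, a metalloprotease that cuts WNT proteins, stood at 17.2, 11.75, 11.4 and 10.5 CPM and at 4.84, 4.40 and 4.70 CPM (-1.445 ± 0.22, SE). Nod2, a cytosolic sensor of bacterial peptidoglycan, stood at 21.9, 20.1, 20.5 and 22.3 CPM and at 12.1, 12.3 and 13.5 CPM (-0.745 ± 0.13, SE). Within each group these values differed little, and the groups did not overlap.

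Abca1 and Lpl, also among the genes of smallest p, act on lipids. Abca1, which exports cholesterol from cells, stood at 209, 176, 235 and 154 CPM in EV and at 77.8, 75.7 and 101 CPM in sh-Kmt2d 103 (-1.19 ± 0.19, SE, edgeR adjusted p = 0.176). Lpl, the lipoprotein lipase, stood at 11.8, 4.08, 2.98 and 7.735 CPM and at 0.561, 1.10 and 0.968 CPM (-2.935 ± 0.56, SE), and every sh-Kmt2d library lay below the lowest EV library. Pparg, a nuclear receptor of lipid storage, had low levels of 1.13 to 4.64 CPM in EV and 0.386 to 0.968 CPM in sh-Kmt2d 103. The 16 tested lipid and fatty acid genes had a median of -0.07, with 1 on the higher and 4 on the lower side at an unadjusted p under 0.05, and the regulators of sterol synthesis Srebf1 and Srebf2 both stood at 0.00 on the log2 scale. Without both libraries with high Xist and almost no Y-linked RNA, edgeR called 1 of these 16 genes higher and 5 lower.

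Of the 20 RGS, GRK and G protein genes tested, 1 was higher and 4 lower at unadjusted p values under 0.05, with a median of -0.16, so that the share on the lower side was close to that of all genes. Rgs1, which ends G protein signals in activated B cells, stood at 293, 57.85, 191 and 48.8 CPM in EV and at 16, 11.7 and 25 CPM in sh-Kmt2d 103, which is a log2 fold change of -3.07 ± 0.695 (SE, edgeR adjusted p = 0.176, and 8.59e-05 with DESeq2). EV replicates 1 and 3 were the highest, and the lowest EV library still lay above the highest sh-Kmt2d library. Grk3, a receptor kinase that uncouples receptors from their G proteins, stood at 12, 6.475, 6.125 and 3.965 CPM and at 0.631, 1.835 and 1.45 CPM (-2.46 ± 0.501, SE). Rgs2 (-0.75 ± 0.24, SE) did not overlap between the groups either, while Rgs10 (0.77 ± 0.297, SE) had the opposite sign. Gna13, Gna12 and Grk2 had values of -0.31, -0.09 and -0.04. Among the other genes of smallest p, Plcg1, phospholipase C gamma 1 (-0.71 ± 0.14, SE), Rasgrp4, an exchange factor of RAS (-0.996 ± 0.19, SE), and Bhlhe40, a transcription factor (-0.79 ± 0.13, SE), were lower in every sh-Kmt2d 103 library than in any EV library. The same held for Scn8a, a sodium channel (-2.04 ± 0.36, SE), Zc3h6 (-1.075 ± 0.204, SE) and Galnt17, a glycosyltransferase (-1.575 ± 0.31, SE).

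**Figure D3:**
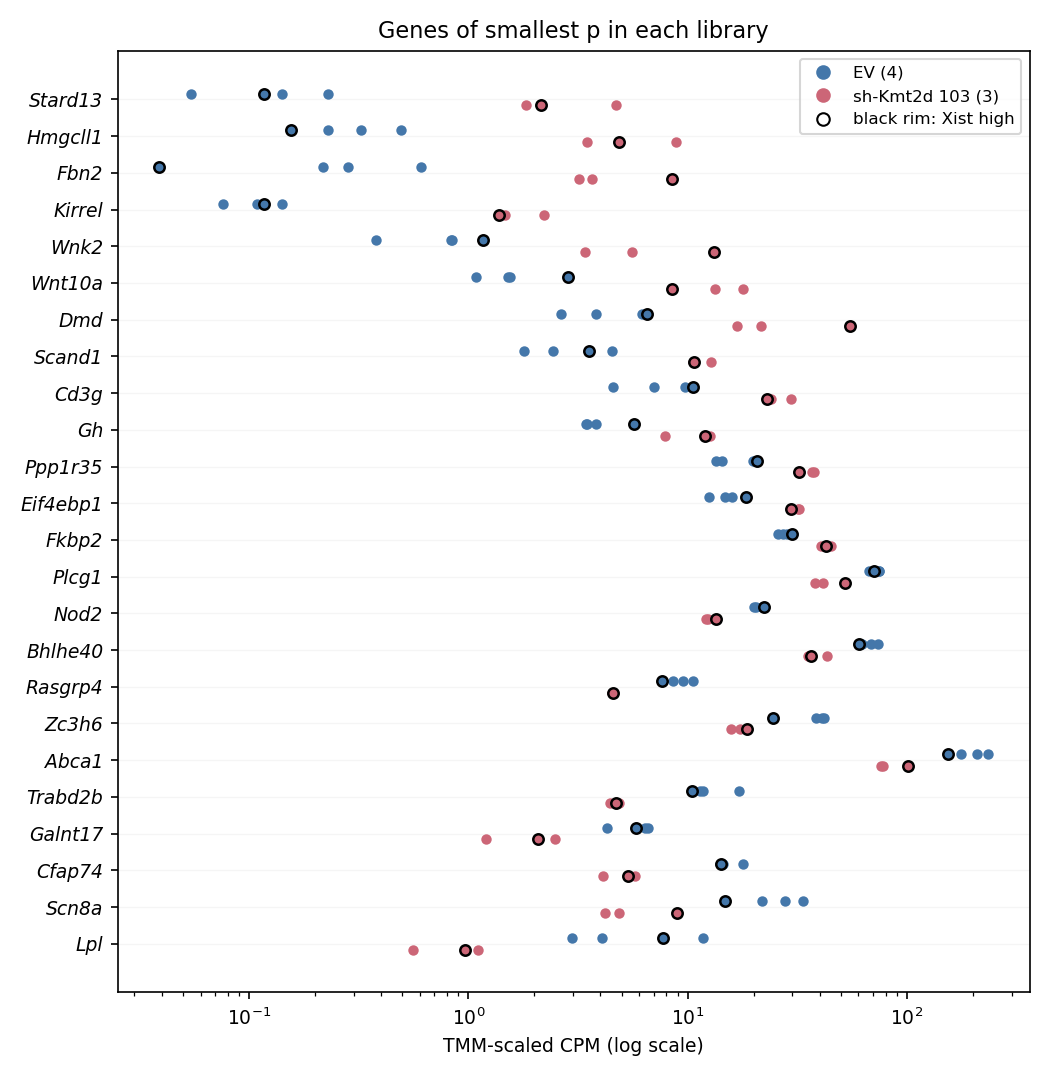
TMM-scaled CPM on a log axis for the genes of smallest p in each direction and for Kirrel and Stard13, 1 point per library, with EV in blue, sh-Kmt2d 103 in red and a black rim on the 2 libraries with high Xist and almost no Y-linked RNA. The red and blue points do not overlap for any gene shown, also where EV replicate 4 is included, which is what a choice by small p favours. Prss23 is left out because 1 EV library had no count, and 1 other gene of the rule is not shown.

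Immediate-early genes combined high levels in EV with large negative differences. These genes encode transcription factors such as FOS, JUN and EGR1 and feedback regulators such as dual specificity phosphatases, and cells switch them on within minutes of a receptor signal or of handling. Factors that bind the cyclic AMP response element and serum response factor, which binds CArG boxes, drive many of them. Of the 26 genes, 24 had a negative log2 fold change, with a median of -1.14, 16 were lower at an unadjusted p under 0.05 and none was higher. The palindromic cyclic AMP response element TGACGTCA stood within the 200 bases before the start of 2 immediate-early genes, Dusp1 and Btg2, among the 22 of 26 with an entry in the RefSeq table (GRCm38.p6). It also stood before Plk2, a kinase gene of the lower side that is not on the list. These windows are shown because Dusp1 and Plk2 had large differences and Btg2 a small one with the same element, 5′ to 3′ on the gene's strand with the element in capitals.
Dusp1, chr17:26508473-26508672 of GRCm38.p6, minus strand: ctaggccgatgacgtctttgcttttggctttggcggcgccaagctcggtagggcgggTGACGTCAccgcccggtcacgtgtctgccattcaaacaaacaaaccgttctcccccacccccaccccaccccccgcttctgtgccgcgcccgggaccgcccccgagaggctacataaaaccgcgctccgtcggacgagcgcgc
Plk2, chr13:110394844-110395043 of GRCm38.p6, plus strand: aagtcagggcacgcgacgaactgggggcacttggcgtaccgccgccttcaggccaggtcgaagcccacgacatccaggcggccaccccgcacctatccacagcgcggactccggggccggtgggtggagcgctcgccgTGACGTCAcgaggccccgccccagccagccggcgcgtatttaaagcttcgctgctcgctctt
Btg2, chr1:134079156-134079355 of GRCm38.p6, minus strand: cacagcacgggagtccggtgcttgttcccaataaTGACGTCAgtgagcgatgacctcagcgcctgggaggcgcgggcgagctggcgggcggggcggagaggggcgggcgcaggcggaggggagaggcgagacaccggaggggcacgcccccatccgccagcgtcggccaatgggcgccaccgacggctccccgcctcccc

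The element began 143, 62 and 166 bases before the start of Dusp1, Plk2 and Btg2. Its 8 letters read the same on both strands, and 478 of 27025 genes in the table (1.77%) hold it before the start. That search used a longer window, of which the printed bases are the part nearest the start. The CArG box, searched on both strands in the longer window, stood before 4 of the 22 genes, Egr2, Zfp36, Dusp5 and Srf, and before 1.62% of all genes. A match describes letters in a window and not a site in use. The genes with either motif had large and small values, since Dusp1 stood at -3.14, Zfp36 at -1.555 and Egr2 at -1.39 on the log2 scale, and Btg2 at -0.39, Srf at -0.04 and Dusp5 at 0.03.

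Dusp1, which encodes a MAP kinase phosphatase, stood at 339, 308, 551 and 50.1 CPM in EV and at 25.8, 23.4 and 56.9 CPM in sh-Kmt2d 103, which is a log2 fold change of -3.14 ± 0.75 (SE, edgeR adjusted p = 0.176, and 0.000183 with DESeq2). Fosb, a subunit of AP-1, stood at 665, 653, 1611 and 20.6 CPM and at 21.5, 16 and 74.8 CPM (-4.305 ± 1.27, SE). Klf4, a Krüppel-like factor that holds B cells in quiescence, stood at 36.7, 55.4, 79.5 and 2.18 CPM and at 3.09, 2.46 and 3.87 CPM (-3.79 ± 0.99, SE). In all 3 genes EV replicates 1 to 3 were high, and EV replicate 4 lay among the sh-Kmt2d 103 libraries or, for Klf4, below them. Egr1, a zinc finger factor, stood at 675, 923, 990 and 97.8 CPM and at 70.4, 58.2 and 168 CPM (-2.765 ± 0.76, SE). Plk2, the polo-like kinase shown above, stood at 22.5, 32.7, 57.35 and 6.34 CPM and at 3.79, 2.99 and 5.395 CPM (-2.88 ± 0.675, SE), and the groups just failed to overlap. Fos (-2.56 ± 0.82, SE), Jun (-2.195 ± 0.735, SE), Zfp36, which destabilises cytokine messages (-1.555 ± 0.48, SE), and Nr4a1 (-1.87 ± 0.645, SE) overlapped between the groups in the same way. Nr4a3 (0.04) and Dusp5 (0.03) had values near 0.

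The mean log2 CPM of the 26 genes was 6.63, 7.01, 7.35 and 5.02 from EV replicate 1 to 4 and 5.09, 5.1 and 5.53 from sh-Kmt2d 103 replicate 1 to 3. The difference between the groups thus came from EV replicates 1 to 3, and the libraries overlapped for all 26 genes. DESeq2 called 11 of the 26 lower. Without EV replicate 4 edgeR called 19 lower, with a median of -1.42, and without both libraries with high Xist and almost no Y-linked RNA it called 19 with a median of -1.49. With the index as a covariate 0 of 26 had an unadjusted p under 0.05, and the median was -0.11. In that setting only 311 of all 14026 tested genes were higher and 276 lower at that threshold, so that a count of 0 is near the background. The time from tumour to lysis is not given in the sources used here.

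**Figure D4:**
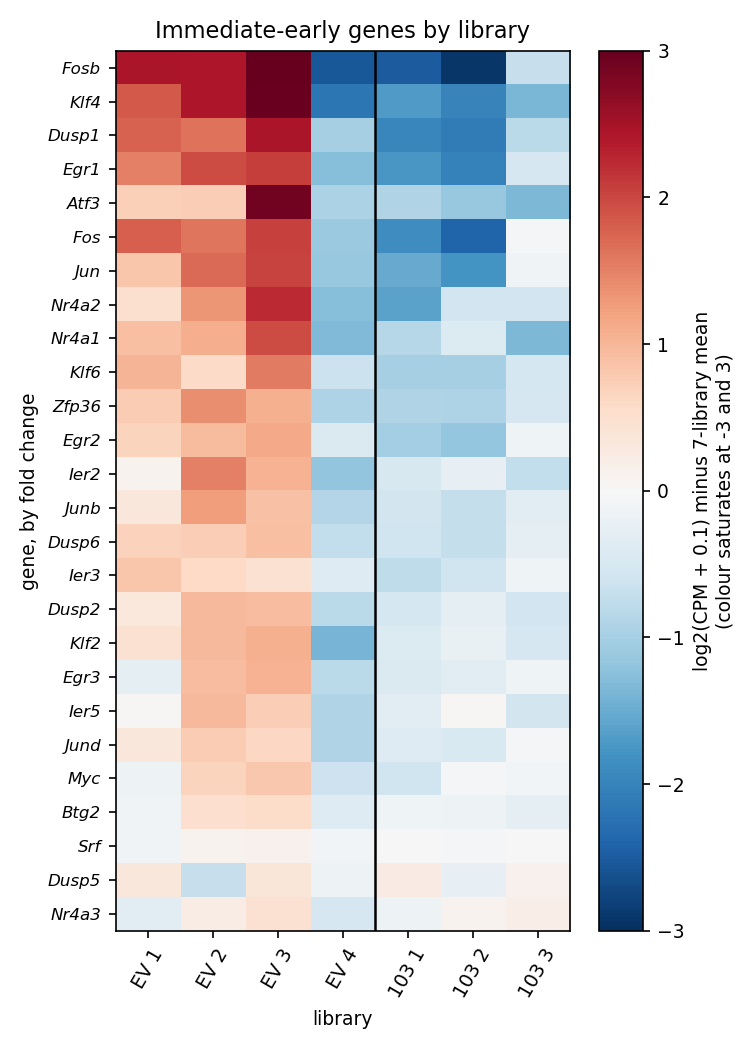
Log2(CPM + 0.1) of the 26 immediate-early genes (rows, ordered by fold change) in the 7 libraries (columns), minus the mean over the libraries, with red above and blue below that mean and the black line between EV and sh-Kmt2d 103. EV replicates 1 to 3 are red for most genes, and EV replicate 4 is blue like the sh-Kmt2d libraries.

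The genes reported in the literature as tumour suppressors that depend on KMT2D in lymphoma had mostly lower values in sh-Kmt2d 103. Of the 7 genes, 6 were lower at an unadjusted p under 0.05, and for 4 of them the libraries did not overlap. Since the list came from published studies of KMT2D in lymphoma, its direction here is no independent evidence. Socs3, a brake on cytokine receptors, stood at 38.3, 37, 40.65 and 22.7 CPM in EV and at 21.7, 18.4 and 18.05 CPM in sh-Kmt2d 103 (-0.835 ± 0.21, SE, edgeR adjusted p = 0.176, and 0.0253 with DESeq2). Tnfaip3, the ubiquitin-editing enzyme A20 that restrains NF-kB, stood at 253, 131, 286 and 116 CPM and at 86.5, 82.6 and 114 CPM (-1.06 ± 0.34, SE). Asxl1, a Polycomb-associated chromatin protein, stood at 191, 129.7, 163 and 148 CPM and at 89.7, 76.1 and 128 CPM (-0.69 ± 0.21, SE). In Socs3 and Tnfaip3 the lowest EV library was replicate 4, just above the highest sh-Kmt2d library. The kinase gene Sgk1 stood at -1.203 ± 0.49 (SE) and Arid1a, a subunit of the BAF remodelling complex, at -0.92 ± 0.35 (SE), with overlap. Trp53 had a positive value of 0.265 ± 0.14 (SE). DESeq2 called 1 of the 7, edgeR without EV replicate 4 called 4 lower, and with the index as a covariate the median was -0.11 in place of -0.84.

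Among the enzymes of H3K4 methylation, the large methyltransferases had negative values, and the core subunits were near 0 or positive. Kmt2a (-1.47 ± 0.61, SE), Kmt2b (-0.83 ± 0.301), Kmt2c (-1.404 ± 0.58), Setd1a (-0.75 ± 0.215) and Setd1b (-1.401 ± 0.47) were lower at an unadjusted p under 0.05, as were Kmt2d itself, the demethylase gene Kdm5a (-0.93 ± 0.29) and the coactivator gene Ncoa6 (-0.64 ± 0.26). Setd1a stood at 44.9, 41.1, 50.7 and 29.4 CPM in EV and at 23.6, 20.4 and 30.1 CPM in sh-Kmt2d 103, with EV replicate 4 and sh-Kmt2d 103 replicate 3 side by side. The core subunits Wdr5 (0.08) and Ash2l (-0.097) were near 0. Dpy30 (0.56 ± 0.22, SE), Men1 (0.395 ± 0.11, SE) and Pagr1a (0.45 ± 0.17, SE) were higher at that threshold. Men1, the menin scaffold of the KMT2A and KMT2B complexes, stood at 60.3, 63.3, 65.9 and 72.6 CPM in EV and at 88, 82.6 and 88 CPM in sh-Kmt2d 103, without overlap. In all, 17 of 22 genes were negative, 3 were higher and 8 lower at unadjusted p values under 0.05, and the median was -0.27. Once the long-minus-short index was a covariate, the median was 0.07, with 3 higher and 1 lower at that threshold. Of all 14026 tested genes 311 were higher and 276 lower in that setting. Kdm6a, an X-linked gene that escapes inactivation, was highest in the 2 libraries with high Xist and almost no Y-linked RNA, at 165 CPM in EV replicate 4 and 178.6 CPM in sh-Kmt2d 103 replicate 3, and stood at -0.16 between the groups.

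Other chromatin regulators of lymphoma had a median of -0.69 over 17 genes, with 0 on the higher and 9 on the lower side at an unadjusted p under 0.05. Tet2, a methylcytosine oxidase, stood at 38.5, 38.6, 52 and 11.6 CPM in EV and at 8.77, 7.71 and 15.6 CPM in sh-Kmt2d 103 (-1.725 ± 0.49, SE, edgeR adjusted p = 0.176, and 0.0163 with DESeq2). EV replicate 4 again lay within the range of the sh-Kmt2d libraries. Dnmt3a, a de novo DNA methyltransferase, had -0.69 ± 0.199 (SE) and the acetyltransferase genes Crebbp and Ep300 had -1.01 ± 0.41 and -0.73 ± 0.31. The Polycomb genes Ezh2 (0.08), Suz12 (-0.17) and Eed (0.13) had values near 0. With the index as a covariate the list's median was 0.1.

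B cell markers were abundant in every library. The summed level of 15 B cell markers ran from 14950 to 18410 CPM in EV and from 16350 to 21960 CPM in sh-Kmt2d 103, and none of these markers was at 0. Pax5 (-0.19) and Ebf1 (-0.21) were not past the unadjusted threshold. Cd79b, a signalling chain of the B cell receptor, stood at 1769, 2269, 1956 and 2457 CPM in EV and at 3978, 4273 and 2732 CPM in sh-Kmt2d 103 (0.79 ± 0.202, SE). Ms4a1, which encodes CD20, stood at 1834, 2018, 2013 and 2443 CPM and at 3186, 3446 and 2632 CPM (0.57 ± 0.165, SE). Ighm, the heavy chain of IgM, stood at 11740, 11460, 11680 and 12720 CPM and at 20850, 17850 and 14490 CPM (0.575 ± 0.17, SE). For these 3 genes all sh-Kmt2d 103 libraries lay above all EV libraries, with replicate 3 the nearest to EV. Of the 15 B cell markers 5 were higher and 0 lower at unadjusted p values under 0.05, and of 16 mature B cell identity genes 4 were higher and 0 lower with a median of -0.18, among them the activation marker gene Cd83 at 0.62 ± 0.17 and Spib, a transcription factor of B cells, at 0.405 ± 0.14 (SE).

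Germinal centre genes showed no call in any direction at an unadjusted p under 0.05, with a median of 0.08 over 15 genes. Rgs13, which marks germinal centre B cells, stood at 222, 132, 173 and 388 CPM in EV and at 407, 319 and 431 CPM in sh-Kmt2d 103 (0.75 ± 0.34, SE), where EV replicate 4 lay in the range of the sh-Kmt2d libraries. Bach2 (-0.82 ± 0.44, SE) and Mef2c (-0.47 ± 0.22, SE) had wide spreads. Plasma cell genes had a median of 0.12, with Mzb1 (0.63 ± 0.23, SE) and Xbp1 (0.52 ± 0.21, SE) higher at an unadjusted p under 0.05. Marginal zone and B-1 genes had a median of -0.14 over 13 genes, with Notch2 lower, and B cell precursor genes a median of 0.28 over 7 with none past that threshold. The mean log2 CPM of the precursor genes was 0.69, 0.15 and 2.72 from sh-Kmt2d 103 replicate 1 to 3. Their median turned to -1.24, with all 7 negative, without both libraries with high Xist and almost no Y-linked RNA.

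MHC class II genes had positive values. Of 11 genes, 9 were positive with a median of 0.42, and 4 were higher at an unadjusted p under 0.05. H2-Ab1, the beta chain of I-A, stood at 3476, 4156, 3737 and 4778 CPM in EV and at 6471, 6554 and 4871 CPM in sh-Kmt2d 103 (0.56 ± 0.18, SE, edgeR adjusted p = 0.176, and 0.0486 with DESeq2). All sh-Kmt2d libraries lay above EV, by a small margin in replicate 3. H2-Aa (0.61 ± 0.255, SE), H2-Eb1 (0.55 ± 0.225, SE) and H2-DMa (0.48 ± 0.201, SE) overlapped. Ciita, the transactivator of these genes, had the opposite sign at -0.33 ± 0.15 (SE), and all sh-Kmt2d libraries lay below EV. With the index as a covariate the list's median was -0.1, and H2-Aa stood at -0.11. MHC class I presentation had a median of 0.33 over 14 genes, with 5 on the higher and 1 on the lower side at an unadjusted p under 0.05, and Calr, a chaperone of class I loading, stood at 0.55 ± 0.15 (SE).

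Of 14 BCL2 family genes, which govern mitochondrial cell death, 5 were higher and 1 lower at unadjusted p values under 0.05, with a median of 0.34. Bax, the effector of mitochondrial death, stood at 94.4, 104.5, 89.3 and 126 CPM in EV and at 156, 149.7 and 139 CPM in sh-Kmt2d 103 (0.52 ± 0.15, SE, edgeR adjusted p = 0.176, and 0.047 with DESeq2), without overlap. Bak1, its partner (0.52 ± 0.16, SE), and Bad, a sensitiser (0.61 ± 0.19, SE), did not overlap either. Pmaip1, which encodes the BH3-only protein NOXA, went the other way, at 70.6, 80.7, 110.2 and 34 CPM in EV and 24.5, 27.95 and 44.3 CPM in sh-Kmt2d 103 (-1.197 ± 0.38, SE). Bcl2, the survival gene most tied to follicular lymphoma, had 0.32 ± 0.18 (SE) with overlap. Of 15 p53 targets, 3 were higher and 2 lower, shares close to those of all genes, with a median of 0.27, and Phlda3, an inhibitor of AKT, stood at 1.67 ± 0.52 (SE) beside Cdkn1a.

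Growth and metabolism lists held small positive values. Among 21 respiratory chain subunits 20 were positive, with a median of 0.48 and 15 higher at an unadjusted p under 0.05. Cox5a, a subunit of cytochrome c oxidase, stood at 20.6, 24.7, 18.8 and 35.1 CPM in EV and at 45.1, 50.1 and 32.3 CPM in sh-Kmt2d 103 (0.775 ± 0.245, SE). EV replicate 4 and sh-Kmt2d 103 replicate 3 were close to each other there. Cytosolic ribosomal proteins had a median of 0.56 over 24 genes with 11 higher, and glycolysis a median of 0.52 over 16 genes with 6 higher and 1 lower. Eno1, the enolase of glycolysis, stood at 73.25, 70.2, 71.5 and 119.5 CPM in EV and at 134, 118 and 134 CPM in sh-Kmt2d 103 (0.62 ± 0.21, SE). The lower gene was Gapdh (-0.78 ± 0.23, SE), a gene with many near-identical pseudogenes, whose level is uncertain, since the count leaves out reads placed at several sites. Such reads averaged 41.3% in EV and 49.6% in sh-Kmt2d 103. Their part in the values of these lists, the ribosomal one included, was not tested. Cell cycle genes were positive in 21 of 24 cases with a median of 0.33, and none had an unadjusted p under 0.05. Without EV replicate 4, which had the highest Mcm7 of EV (125.4 CPM against 68.2 to 72.1 CPM in the other EV libraries), edgeR called 12 of the 24 higher. In the MYC network, with a median of 0.2 over 15 genes, 3 were higher and 3 lower, with Mxi1, a repressor of MYC targets, at 0.68 ± 0.14 (SE) and Odc1, the first enzyme of polyamine synthesis, at -0.59 ± 0.19 (SE). With the index as a covariate the medians of the respiratory chain and ribosomal lists were 0.03 and -0.1, but the short-transcript genes of the index are largely other subunits of the same respiratory complexes, so that the first of these values says nothing about transcript length.

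**Figure D5:**
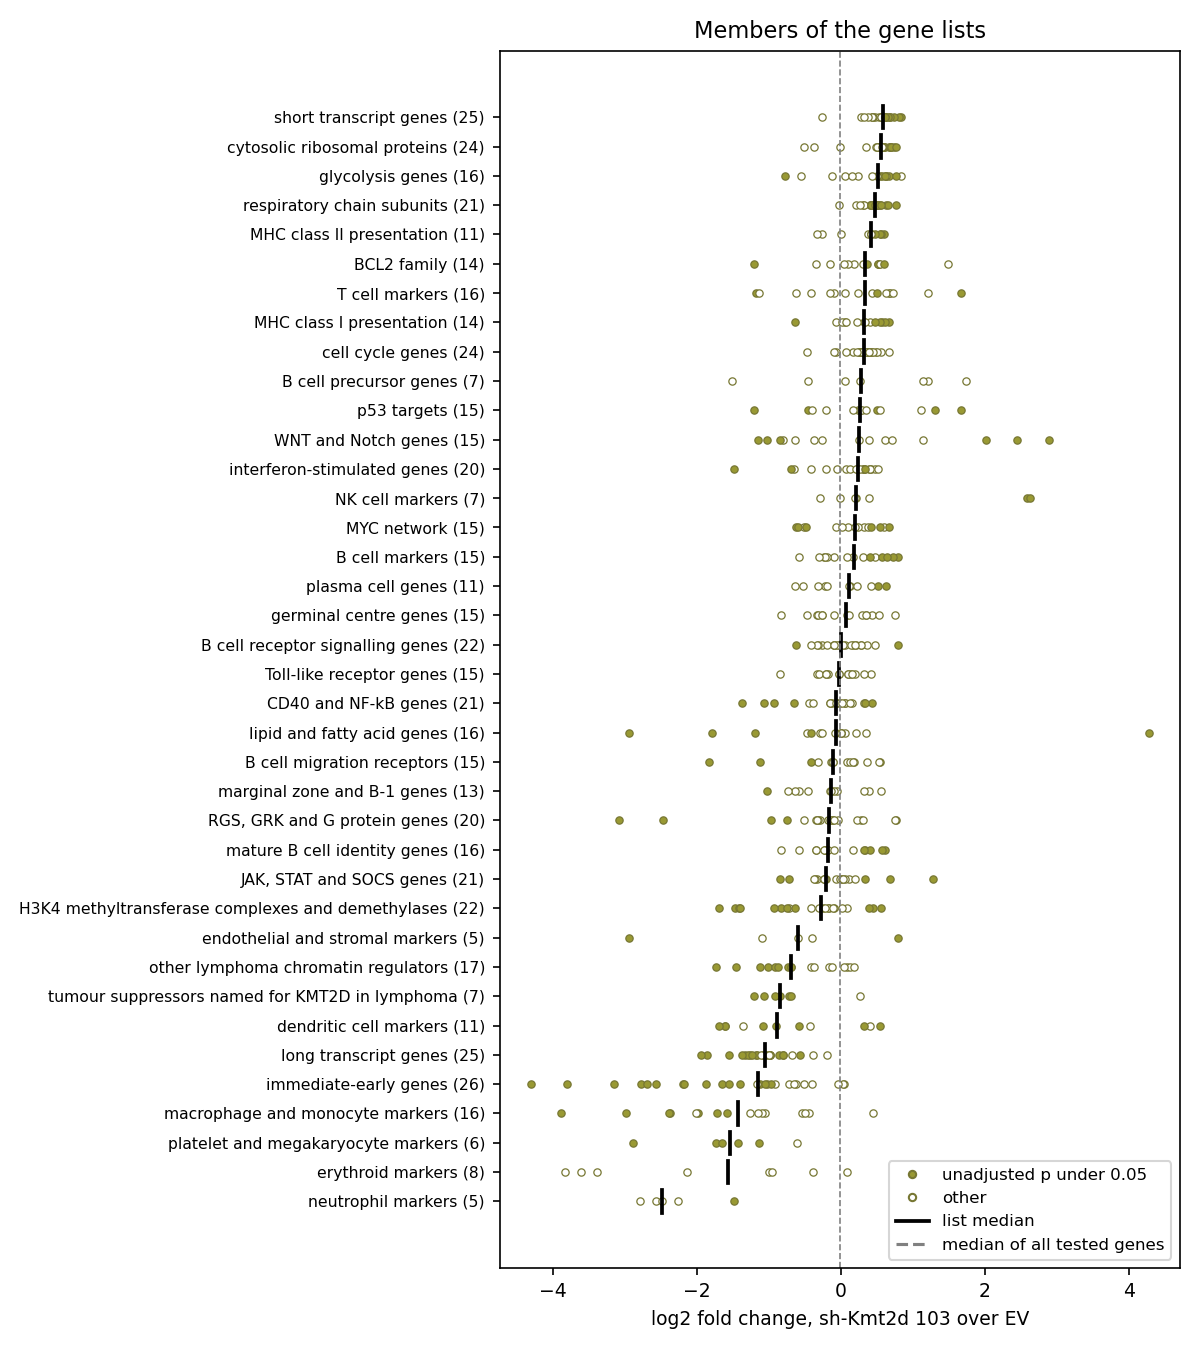
Log2 fold change (positive where sh-Kmt2d 103 is higher than EV) for the tested members of each gene list (number of tested members in brackets), 1 point per gene, filled where the unadjusted p is under 0.05, with the list median as a black bar and the median of all tested genes (-0.01) as a dashed line. Neutrophil, erythroid, platelet, macrophage and immediate-early genes have the lowest medians, and short transcripts, ribosomal proteins and glycolysis the highest.

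Lists of signalling genes had medians between -0.2 and 0.24, beside the -0.01 of all tested genes. Nfkbiz, an atypical NF-kB regulator induced by receptor signals, stood at 69.2, 65.5, 119 and 29.9 CPM in EV and at 25.35, 24.75 and 32 CPM in sh-Kmt2d 103 (-1.37 ± 0.401, SE). Rel had -0.93 ± 0.303 (SE), and 2 of 21 CD40 and NF-kB genes were higher and 4 lower at unadjusted p values under 0.05 (median -0.06). Cd69, an early activation marker that keeps lymphocytes in tissue, stood at 234.5, 149, 266 and 45.4 CPM in EV and at 47.7, 59.5 and 39.35 CPM in sh-Kmt2d 103 (-1.83 ± 0.53, SE), with EV replicate 4 within the sh-Kmt2d range. Its list of 15 migration receptors held 1 gene higher and 3 lower (median -0.11), with the integrin genes Itgal at -0.41 ± 0.14 and Itga4 at -1.11 ± 0.43 (SE). In the JAK, STAT and SOCS list (21 genes, median -0.2, 3 higher and 2 lower) Socs1 stood at 9.96, 11.3, 7.32 and 12.4 CPM in EV and at 16.3, 16.6 and 16.7 CPM in sh-Kmt2d 103 (0.69 ± 0.196, SE), opposite in sign to Socs3. B cell receptor signalling (22 genes, median 0.0) held 1 gene higher, Cd79b, and 1 lower, Malt1 (-0.62 ± 0.26, SE). Toll-like receptor genes (15 genes, median -0.02) held none in either direction. Interferon-stimulated genes (20 genes, median 0.24) held 1 higher and 2 lower, the latter Ifih1 (-0.69 ± 0.23, SE) and Rsad2 (-1.48 ± 0.64, SE).

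Among markers of other cells that the tumour sample could hold, macrophage and platelet lists had negative medians in sh-Kmt2d 103 and T and NK cell lists positive ones. In bulk libraries fewer cells of a type and less RNA per cell cannot be told apart. Of 16 macrophage and monocyte markers, 15 had negative values, 7 were lower at an unadjusted p under 0.05 and for 5 the groups did not overlap. Marco, a scavenger receptor of marginal zone macrophages, stood at 14.5, 3.45, 1.52 and 2.18 CPM in EV and at 0.316, 0.4195 and 0.346 CPM in sh-Kmt2d 103 (-3.88 ± 0.92, SE, edgeR adjusted p = 0.176, and 0.000288 with DESeq2). Mrc1, the mannose receptor, stood at 52.9, 10.35, 12.5 and 9.21 CPM and at 2.595, 4.56 and 5.19 CPM (-2.37 ± 0.698, SE). EV replicate 1 was by far the highest in both, yet the other EV libraries still lay above sh-Kmt2d 103. The summed level of the list was 942.8 CPM in EV replicate 1, 260.7 to 350.9 CPM in the other EV libraries and 202.1 to 319.4 CPM in sh-Kmt2d 103, so that the sums overlapped, and none of its markers was at 0. Abundant members such as Lyz2 (-0.44 ± 0.42, SE) and Cd68 (-0.53 ± 0.28, SE) were not past the unadjusted threshold. Lpl and Abca1 are also expressed by macrophages, and the part of macrophage RNA in their values was not tested.

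Platelet and megakaryocyte genes had negative values, with a summed level of 85.53 to 191.2 CPM in EV and 53.58 to 119.5 CPM in sh-Kmt2d 103. Ppbp, a platelet chemokine, stood at 1.22, 2.11, 1.63 and 1.44 CPM in EV and at 0.210, 0.157 and 0.277 CPM in sh-Kmt2d 103 (-2.88 ± 0.38, SE, edgeR adjusted p = 0.11, and 9.11e-05 with DESeq2), with no overlap. Itga2b, the platelet integrin chain (-1.42 ± 0.34, SE), and Pf4 (-1.73 ± 0.48, SE) did not overlap either. Pf4 lay near the floor, with 8, 11, 10 and 35 counts in EV and 5, 6 and 4 in sh-Kmt2d 103. All 6 tested members were negative, 5 were lower at an unadjusted p under 0.05, and Gp9, Gp1bb and Treml1 were under 1 CPM in every library and not tested. Of 11 dendritic cell markers 2 were higher and 5 lower, with a median of -0.89, while their summed level was higher in every sh-Kmt2d 103 library, at 1466 to 1570 CPM against 1257 to 1426 CPM in EV. Cst3, a protease inhibitor, was among those higher (0.55 ± 0.196, SE). Xcr1 (-1.61 ± 0.45, SE) and Clec9a (-1.685 ± 0.49, SE), which mark cross-presenting dendritic cells, did not overlap between the groups. Both rest on few counts. Xcr1 had 7, 15, 10 and 19 counts in EV and 6, 3 and 5 in sh-Kmt2d 103. Clec9a had 22, 24, 45 and 21 counts in EV and 21, 5 and 7 in sh-Kmt2d 103.

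Neutrophil and erythroid genes marked EV replicate 4. S100a9, a calcium-binding protein of neutrophils, stood at 6.85, 4.22, 5.69 and 86.2 CPM in EV and at 1.65, 10.2 and 1.38 CPM in sh-Kmt2d 103. Slc4a1, the anion exchanger of red cells, stood at 12.85, 0.352, 0.542 and 104 CPM and at 1.19, 2.78 and 4.84 CPM. The medians of the 5 neutrophil and 8 erythroid genes tested were -2.48 and -1.56, and without EV replicate 4 they were -0.32 (4 genes) and 0.15 (6 genes). Of these genes 1, Csf3r, the receptor of a granulocyte growth factor (-1.48 ± 0.61, SE), was lower at an unadjusted p under 0.05, and none was higher. T cell markers had a median of 0.34 over 16 genes, with a summed level of 153.9 to 213 CPM in EV and 242.7 to 264.3 CPM in sh-Kmt2d 103. Much of that sum was Lck, which B cells also express, at 81.6 to 153 CPM in EV and 139 to 170 CPM in sh-Kmt2d 103. The mean log2 CPM of the list overlapped, at 1.95 to 2.81 in EV and 2.36 to 2.66 in sh-Kmt2d 103. Lck (0.51 ± 0.21, SE) and Cd3g were higher and Cd4 (-1.17 ± 0.33, SE) was lower at an unadjusted p under 0.05. NK cell markers had a median of 0.21 over 7 genes, with Klrb1c and Klre1 higher at that threshold. Klrb1c stood at 0.304, 1.41, 0.9215 and 0.855 CPM in EV and at 1.23, 6.97 and 7.815 CPM in sh-Kmt2d 103 (2.59 ± 0.66, SE), and Klre1 at 0.304, 0.915, 0.271 and 0.466 and at 1.05, 7.29 and 0.761 CPM (2.635 ± 0.84, SE), so that both overlapped and Klre1 was high in sh-Kmt2d 103 replicate 2 alone. The 5 endothelial and stromal genes had a median of -0.59, with Lpl lower and Acta2 (0.79 ± 0.34, SE) higher. The stromal collagen genes were under 1 CPM in every library and not tested.

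The 3 sh-Kmt2d 103 libraries were not alike. Replicates 1 and 2 were close to each other for Kmt2d, the long transcripts and the immediate-early genes, while replicate 3 was nearer to EV. Replicate 3 alone held high values of Il7r, a receptor of early lymphocytes (15.56 CPM against 1.192 and 1.206 CPM), Lef1 (13 against 1.297 and 0.8914 CPM) and Sox4 (5.74 against 0.8766 and 0.367 CPM). The leading kappa variable segment, a part of the antibody light chain gene that a B cell clone fixes for itself, differed among the 3. It was Igkv11-106 in replicate 1 with 29.7% of the counts on such segments (95% Wilson interval 29.48% to 29.94%), Igkv5-39 in replicate 2 with 23% (22.66% to 23.25%) and Igkv5-48 in replicate 3 with 48.8% (48.42% to 49.14%). In EV the leading segment held 14.0% to 31.6%, and in EV replicate 2 it was Igkv5-39 too. The intervals cover counting error only.

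The 2 libraries of title number 110, which took no part in the tests and would share the EV controls, were set on the same 9-library scale for a few of the named genes, chosen after their values were seen. They had been left out for the strongest loss of long transcripts, and its part in the low values below was not tested. The second of them held 5925745 counts on genes, with 73.68% of its reads placed at several sites, so that its values of 0 CPM lie at the floor. Kmt2d stood at 18.9 and 9.26 CPM there, below the 47.2 to 206 CPM of sh-Kmt2d 103. Cfap74 stood at 6.14 and 5.08 CPM, beside 3.77 to 5.299 CPM in sh-Kmt2d 103 and 12.98 to 16.5 CPM in EV. Wnt10a stood at 11.3 and 28.4 CPM, beside 7.85 to 16.5 CPM and 1.002 to 2.61 CPM in the same order. Dmd stood at 22.5 and 3.29 CPM, beside 15.4 to 50.8 CPM and 2.45 to 6.01 CPM, so that 1 of these 2 libraries lay in the range of EV. Abca1 stood at 20.8 and 7.17 CPM, below the 69.6 to 93.5 CPM of sh-Kmt2d 103 and the 141.6 to 217 CPM of EV. Of the genes close to absent in EV, Hmgcll1 stood at 4.574 and 1.493 CPM, beside 3.18 to 8.155 CPM in sh-Kmt2d 103 and 0.143 to 0.4535 CPM in EV. Stard13 stood at 0.751 and 0 CPM, below its 1.69 to 4.32 CPM in sh-Kmt2d 103, with 0.0501 to 0.21 CPM in EV. Kirrel stood at 0.341 and 0.299 CPM, below its 1.28 to 2.03 CPM in sh-Kmt2d 103, with 0.0701 to 0.13 CPM in EV. Fbn2 stood at 2.66 and 0 CPM, below its 2.94 to 7.785 CPM in sh-Kmt2d 103, with 0.0358 to 0.561 CPM in EV.

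The named genes differed in how they followed the long-minus-short index. With the index as a covariate, under which edgeR called 0 genes in either direction, the log2 fold change was 4.43 for Hmgcll1, -1.48 for Cfap74 and -2.7 for Ppbp, close to their values without it, and 1.96 for Wnt10a. For Rgs1 it was -1.16, for Dusp1 -0.68, for Fosb 0.03 and for Tet2 -0.16, all nearer to 0 than without it. Hmgcll1, Cfap74 and Ppbp were chosen by small p, which favours little spread within a group. The index itself varied within EV, from 0.877 to 2.895. This contrast thus follows in part from the choice of genes. The median over the 6 platelet genes was -1.59 and that over the 16 macrophage markers -0.99 with the covariate. Those over the immediate-early genes and over the chromatin regulators stood at -0.11 and 0.1.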

How the data were processed

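RNA was measured by poly(A) sequencing (TruSeq RNA v2, RNeasy Plus, per the labels' protocols). The authors deposited raw read counts per Ensembl gene, made with HTSeq 0.6.0 after CASAVA 1.8.2, per the submitters' processing notes. Aligner, annotation, strand setting and handling of duplicates were not given in the sources used here. The notes name mm9. Of 37583 gene rows, 87.4% matched a symbol in a list of gene names or, failing that, in the RefSeq table (GRCm38.p6), and the 5 summary rows were dropped. They held reads placed at several sites (36.5% to 54% of all reads of a library), so that genes with near-identical copies are undercounted. Peak lists were not used.

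The 4 EV and 3 sh-Kmt2d 103 libraries were compared by the robust quasi-likelihood test of edgeR 4.0.16 in R 4.3.3 (genes kept by filterByExpr, TMM scaling, two-sided, Benjamini-Hochberg adjustment over 14026 genes, threshold 0.05). CPM values are TMM-scaled. The procedure was tested on simulated data. Alternatives used DESeq2 1.42.0, limma 3.58.1, other filters and scalings, covariates and left-out libraries. No 2 libraries of a group agreed within counting noise. The members and the 39 gene lists were chosen with earlier results of these data known. Lists are described by counts and medians, without a test.

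Named genes, leaving out immunoglobulin and T cell receptor segments, unnamed, predicted, pseudo- and sex-linked genes, were Kmt2d, the 12 genes per direction of smallest p whose mean reached 5 CPM in either group, the 6 per direction of largest fold at an unadjusted p under 0.05 and at least 20 CPM, genes at 3 counts or fewer in one group and at least 20 in the other, and the 3 members of smallest p of each list. Other list members were named after their values were seen, and a few genes are not reported here. Promoter windows came from RefSeq and were not joined to the counts' build.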

Additional observations from a re-analysis of the deposited data

Results flagged for a closer look

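Dixon's ratio, the gap of the most distant of the 4 EV libraries to its neighbour over the range of the 4, passed its 95% critical value in 9 of 140 values tested. Chance passes about 1 in 20, so that this count was close to the share that chance gives. The values tested were the log2 CPM of the 135 named genes and several library measures such as the index, and all 9 flagged were genes. Genes of the same libraries are not independent of each other, and most were named for a small p in these libraries. The flags therefore do not count as separate evidence about a library. In 8 of the 9 the distant library was EV replicate 4. It was low for Zc3h6 (ratio 0.839), Egr1 (0.835) and Socs3 (0.84), and high for S100a9 (0.842), Bad (0.886), Mcm5 (0.834), Mcm7 (0.908) and Eno1 (0.919). Egr1 stood at 675, 923, 990 and 97.8 CPM in the EV libraries in order, and Eno1 at 73.25, 70.2, 71.5 and 119.5 CPM. Mcm5, a subunit of the replicative helicase like Mcm7, stood at 161, 145, 156 and 276 CPM in EV and at 286.5, 206 and 264 CPM in sh-Kmt2d 103. In these genes other than S100a9 EV replicate 4 lay nearer to the sh-Kmt2d 103 libraries than the other EV libraries did. For Cfap74 the distant library was EV replicate 1 (0.883), which was the highest.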

How the results depend on the processing

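Counts of calls depended on the tool and on EV replicate 4. Genes at an adjusted p under 0.05, 0 and 0 with edgeR, were 225 higher and 440 lower with DESeq2, 2269 and 2452 with DESeq2 without EV replicate 4, 4128 and 4244 with limma-voom with quality weights, which gave EV replicate 4 a weight of 0.191 and sh-Kmt2d 103 replicate 1 one of 6.614, 5 and 1 with no filter, 1 and 0 with the replicate block, and 2683 and 2972 without the 2 libraries with high Xist and almost no Y-linked RNA. Leaving out 1 library at a time gave 0 to 1645 higher and 0 to 1579 lower, with calls only without EV replicate 4. At an unadjusted p under 0.05 the edgeR counts of 1599 and 2000 became 4494 and 4575 with quality weights, 3477 and 3708 without the 2 libraries, 2943 and 3106 with DESeq2 without EV replicate 4, 289 and 1065 in a fit of 3 groups over 9 libraries, 311 and 276 with the index as a covariate, 1030 and 1550 with the replicate block, and 527 to 2969 and 680 to 2848 when 1 library was left out. The number of tested genes changed with the filter, and of the rest the cause was not tested. Limma-voom without weights, both other scalings, the filter at a mean of 5 CPM and the sex class as a covariate kept 0 and 0 adjusted calls. Total-count scaling moved the unadjusted counts to 1294 higher and 2188 lower.

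Kmt2d passed the threshold at -2.71 with quality weights, -2.97 without the 2 libraries and -2.0 with DESeq2 without EV replicate 4, and stood at 0.42 with the index as a covariate. With that covariate 9 other named genes changed sign, Fosb (0.03), Mef2c (0.04), Rplp1 (-0.02), Dntt (0.90), Notch2 (0.01), H2-Aa (-0.11), Bach2 (0.22), Socs4 (0.08) and H2-Eb1 (-0.05). Quality weights turned Il7r (-1.12), Slc4a1 (0.16) and Prf1 (0.14), leaving out sh-Kmt2d 103 replicate 3 turned Il7r (-1.08, in a range of -1.08 to 1.71 over the left-out libraries) and Sox4 (-0.08, in a range of -0.08 to 2.26), and leaving out the 2 libraries turned Il7r (-1.32), Prf1 (0.0), S100a8 (0.11), S100a9 (0.06) and Sox4 (-0.34). Of 2793 pairs of a named gene and a setting 2257 kept direction and side of the threshold, 516 passed it in addition and 20 changed sign. Most of these genes were named for a small p in the same libraries, which favours such passes. Of 818 pairs of a list and a setting 709 kept a median within the spread and 109 moved, 21 of them with the index. Replicate numbers did not pair the libraries (correlations of same-numbered deviations -0.008, -0.01, 0.377 and -0.086), and Hmgcll1 stood at 4.13 with the block. The settings that leave out the 2 libraries together, use the sex class or use DESeq2 without EV replicate 4 were chosen after seeing the data. With 4 and 3 libraries and genes under 5 CPM among those tested (3503 genes), small differences are not detectable.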

Other observations

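The leading heavy chain variable segment also differed between libraries of a group. It was Ighv6-3 in sh-Kmt2d 103 replicate 1 with 39.4% of the counts on such segments (95% Wilson interval 38.83% to 40%), and Ighv3-6 in replicates 2 and 3 with 22.1% and 22%. In EV it was Ighv1-18 in replicates 1 and 3 (32% and 24.6%), Ighv3-6 in replicate 2 (22.9%) and Ighv7-3 in replicate 4 (23.1%). The table holds 27 such segments, and reads shared between them were not counted. Reads placed at several sites made up 36.5% to 47.9% of the EV libraries and 44.1% to 53.9% of the sh-Kmt2d 103 libraries, with means of 41.3 ± 5.07 (SD, n = 4) and 49.6 ± 5.04 (SD, n = 3) and an exact permutation test (two-sided) gave p = 0.114, with an adjusted p of 0.152 over 4 measures.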
